A study of Mus musculus with 4 samples.

Results

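The matricellular and fibrous matrix glycoproteins described here are 10 genes, Fn1, Sparc, Tnc, Postn, Thbs1, Fbn1, Lox, Loxl2, Bgn and Dcn, taken by symbol from the 22809 genes of the deposited table. They were measured by RNA sequencing of poly(A) RNA from freshly isolated mouse glomeruli, the capillary tufts that filter blood in the kidney. There were 2 libraries labelled HDAC KO, from mice with a podocyte-specific knockout of the histone deacetylase genes Hdac1 and Hdac2, and 2 control libraries labelled wild type. All mice were 3 weeks old and untreated apart from the genotype, and each library pooled the glomeruli of 2 mice. The driver of the deletion is not given in the sources used here, nor is the strain. The deletion is confined by design to podocytes, so the libraries also hold RNA of endothelial, mesangial and parietal cells in which both genes are intact.

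Matrix glycoproteins of this kind are secreted proteins that organise the spaces between cells. Fibronectin and fibrillin form fibres to which cells and growth factors attach. Matricellular proteins such as tenascin C, periostin, thrombospondin 1 and SPARC are not mainly structural, and they modulate how cells adhere to and respond to the matrix. Lysyl oxidases crosslink collagen and elastin, and the small leucine-rich proteoglycans biglycan and decorin bind collagen fibrils and growth factors. In the kidney these proteins are known from the mesangium, vessel walls and interstitium, and several accumulate in scarred glomeruli.

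The values are TPM, reads per gene divided by gene length and scaled to 1000000 per library, so levels can be compared between genes. Whole reads recovered from the table numbered 17476365 and 20943138 in HDAC KO replicates 1 and 2 and 15808117 and 12876939 in control replicates 1 and 2. Hdac1 was at 22.9 and 22.5 TPM in the libraries labelled HDAC KO, against 19.3 and 18.6 TPM in the controls, and Hdac2 was at 23.5 and 20.9 TPM in the libraries labelled HDAC KO, against 20.2 and 24.1 TPM in the controls. Neither target transcript was lower, so they do not check the labels, and every direction below rests on the labels.

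Fn1 and Tnc stood highest above the controls, and all 9 members that could be tested had a positive log2 fold change, as did 66.6% of all tested genes, although that of Dcn was below 0 with median-ratio scaling and quantile normalization. The fold of the mean TPM in the libraries labelled HDAC KO over the controls was 7.01 for Fn1 and 6.10 for Tnc, and between 1.14 and 2.43 for the other 7 tested members. None of the 9 passed an adjusted p of 0.05 in limma's moderated test with Benjamini-Hochberg adjustment over 18612 genes, and their adjusted p ranged from 0.142 for Fn1 to 0.931 for Dcn. Among all tested genes, 0 (0%) passed upward and 1 (0.00537%) passed downward, and voom on the recovered reads called none of the 9 either. At an unadjusted p under 0.05, 3 of the 9 members were higher, namely Fn1, Tnc and Thbs1, against 13.4% of all tested genes. Postn was not tested because its mean was under 1 TPM.

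For 4 of the 9 tested members, Fn1, Tnc, Thbs1 and Lox, both libraries labelled HDAC KO lay above both controls, against 36.7% of all tested genes, so the share of the members was near that of all genes. No tested member had both HDAC KO-labelled libraries below both controls, against 14.3% of all genes. The median log2 fold change of the 9 members was 0.80 on the log2(TPM + 1) scale, beside 0.17 for all tested genes, a difference of 0.63. That difference was 1.01 without HDAC KO replicate 1, 0.25 without HDAC KO replicate 2, 0.38 without control replicate 1 and 0.85 without control replicate 2. With median-ratio scaling the median of all genes was -0.030, and 3 of the 9 members had no overlap upward, against 24.1% of all genes upward and 25.5% downward. The count upward depended on single libraries. It was 9 of 9 without HDAC KO replicate 1, against 51.2% of all genes, and 8 of 9 without control replicate 2, against 65% of all genes. Without control replicate 1 it was 4 of 9, against 43.3%. Without HDAC KO replicate 2 it was 4 of 9, against 43.2%, and Dcn then lay below both controls, as 23.1% of all genes did.

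**Figure D1:**
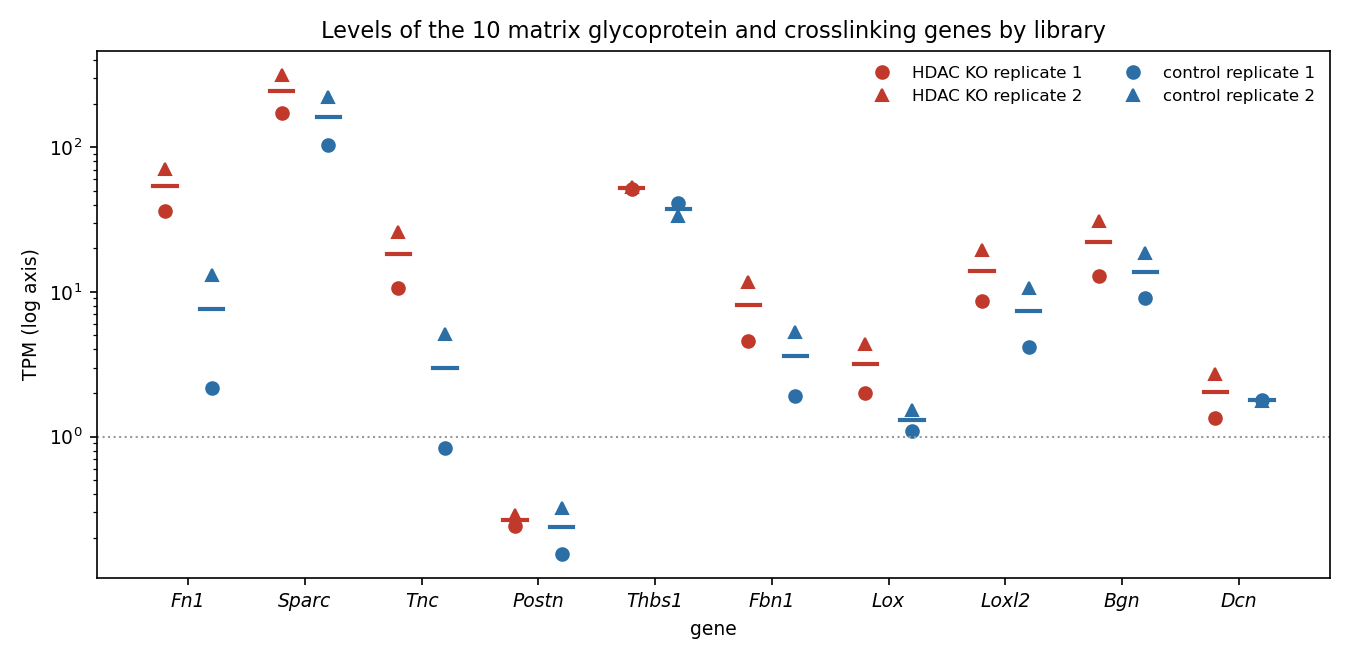
TPM of each gene (log axis) in the 4 libraries, with the libraries labelled HDAC KO in red on the left of each gene and the controls in blue on the right; circles are replicate 1, triangles replicate 2, bars the mean of 2 libraries and the dotted line 1 TPM. Fn1 and Tnc show the widest separation between the groups, and for 8 of the 10 genes replicate 2 lies above replicate 1 in both groups.

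Fn1 encodes fibronectin, the adhesive glycoprotein that cells assemble into fibrils through integrins (ENSMUSG00000026193.15, GRCm38 chromosome 1, 71585520 to 71653200, minus strand). It was at 36.2 and 70.8 TPM in HDAC KO replicates 1 and 2, against 2.15 and 13.1 TPM in control replicates 1 and 2. The groups did not overlap, and the lower library labelled HDAC KO was 2.76-fold above the higher control. The mean was 53.5 ± 24.5 TPM in the libraries labelled HDAC KO and 7.63 ± 7.75 TPM in the controls (SD, n = 2 each). The log2 fold change was 2.95 (SE 0.74, 95% interval 1.10 to 4.81, limma adjusted p = 0.142). The controls differed from each other by 6.10-fold and the libraries labelled HDAC KO by 1.96-fold. As a ratio the spread was thus wider between the 2 controls, while the SD in TPM was larger in the libraries labelled HDAC KO. Fn1 held 12.0% and 13.2% of the summed TPM of the 10 genes in HDAC KO replicates 1 and 2, against 1.297% and 4.20% in control replicates 1 and 2.

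Tnc encodes tenascin C, a matricellular glycoprotein that is prominent in development and wound repair (ENSMUSG00000028364.15, chromosome 4, 63959785 to 64047015, minus strand). It was at 10.6 and 25.8 TPM in HDAC KO replicates 1 and 2, against 0.827 and 5.13 TPM in control replicates 1 and 2. The groups did not overlap, by a margin of 2.07-fold between the lower HDAC KO-labelled library and the higher control. The means were 18.2 ± 10.7 TPM in the libraries labelled HDAC KO and 2.98 ± 3.04 TPM in the controls (SD, n = 2 each), and the log2 fold change was 2.40 (SE 0.68, 95% interval 0.68 to 4.12, limma adjusted p = 0.173). The 2 controls again differed by 6.20-fold. The level of Tnc was a similar part of that of Fn1 in every library, at 0.293 and 0.364 of Fn1 in the libraries labelled HDAC KO and 0.385 and 0.391 in the controls.

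Both genes depended on which control was used, since control replicate 1 was the lower for each. Without control replicate 2, Fn1 and Tnc passed the threshold, with log2 fold changes of 4.04 (limma adjusted p = 0.0183) and 3.27 (adjusted p = 0.0392), and they were then the 2 members called among the 8.37% of all genes called upward and 2.8% called downward. In that fit the lone control is assumed to vary like the libraries labelled HDAC KO, which leave 1 residual degree of freedom, so the spread between the controls does not enter it. Without control replicate 1, the log2 fold changes were 1.87 and 1.52, with adjusted p = 0.152 and 0.261. Over all 13 alternatives tried, the log2 fold change of Fn1 was between 1.87 and 4.04 and that of Tnc between 1.51 and 3.27.

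**Figure D2:**
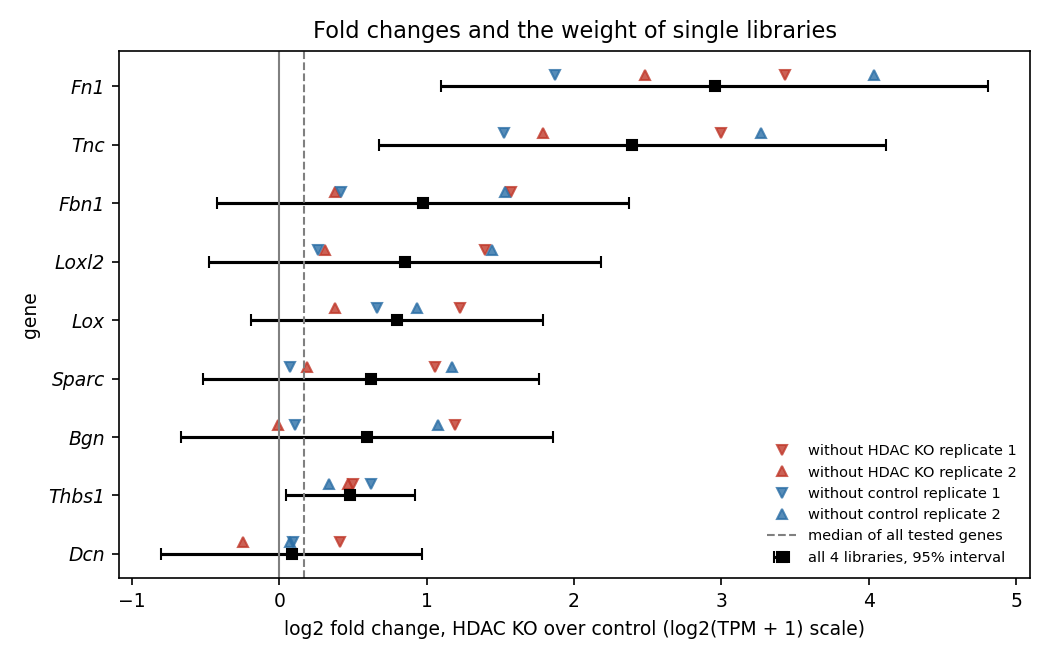
Log2 fold change of each tested gene, HDAC KO-labelled over control on the log2(TPM + 1) scale, with squares and bars for the estimate from 4 libraries and its 95% interval and triangles for the estimate with 1 library left out; the dashed line is the median of all tested genes, 0.17. The intervals of Fn1, Tnc and Thbs1 lie above 0, before adjustment for the number of genes tested, and the estimates of Dcn and Bgn are below 0 without HDAC KO replicate 2.

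Thbs1 encodes thrombospondin 1, a matricellular protein that activates latent TGF-beta and inhibits angiogenesis (ENSMUSG00000040152.8, chromosome 2, 118111876 to 118127133, plus strand). It was at 51.7 and 53.0 TPM in HDAC KO replicates 1 and 2, against 41.2 and 33.6 TPM in control replicates 1 and 2. The groups did not overlap and the libraries within a group lay close together, but the difference was small, with means of 52.4 ± 0.886 TPM in the libraries labelled HDAC KO and 37.4 ± 5.37 TPM in the controls (SD, n = 2 each; log2 fold change 0.48, SE 0.17, 95% interval 0.044 to 0.92, limma adjusted p = 0.241). With median-ratio scaling the groups overlapped, at 49.7 and 46.8 scaled TPM in the libraries labelled HDAC KO against 50.7 and 32.2 in the controls, and the log2 fold change was 0.25. Thbs1 was the 1 tested member other than Dcn that was not higher in replicate 2 than in replicate 1 of the controls, with a ratio of 0.816.

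Sparc encodes SPARC or osteonectin, a collagen-binding matricellular protein of endothelial and stromal cells (ENSMUSG00000018593.13, chromosome 11, 55394500 to 55423183, minus strand). It was the most abundant of the 10 genes in each library, with 173 and 317 TPM in HDAC KO replicates 1 and 2, against 103 and 222 TPM in control replicates 1 and 2. The groups overlapped, and replicate 2 was higher than replicate 1 by 1.83-fold in the libraries labelled HDAC KO and by 2.15-fold in the controls, each more than the 1.504-fold difference of the group means. The means were 245 ± 102 TPM in the libraries labelled HDAC KO and 163 ± 83.9 TPM in the controls (SD, n = 2 each; log2 fold change 0.62, SE 0.45, limma adjusted p = 0.541). The 95% interval of the log2 fold change, -0.51 to 1.76, includes 0 and is wide. Without control replicate 1 the log2 fold change of Sparc was 0.075, and without HDAC KO replicate 2 it was 0.19. Sparc held 57.4% and 59.1% of the summed TPM of the 10 genes in the libraries labelled HDAC KO and 62.4% and 71.2% in the controls.

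Postn encodes periostin, a matricellular protein of mesenchymal cells that is low in healthy kidney (ENSMUSG00000027750.16, chromosome 3, 54361109 to 54391037, plus strand). It was at 0.241 and 0.289 TPM in HDAC KO replicates 1 and 2, against 0.155 and 0.322 TPM in control replicates 1 and 2. These rest on 15 and 21 reads in the libraries labelled HDAC KO and 9 and 15 reads in the controls. The 95% exact Poisson intervals, which cover counting error only, run from 0.135 to 0.397 and from 0.179 to 0.441 TPM in the libraries labelled HDAC KO and from 0.0707 to 0.293 and from 0.180 to 0.532 TPM in the controls. The groups of Postn overlapped, and the size of difference that could be detected at this depth was not worked out.

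Fbn1 encodes fibrillin 1, the backbone of the microfibrils that carry elastin and latent TGF-beta (ENSMUSG00000027204.13, chromosome 2, 125300594 to 125507993, minus strand). It was at 4.55 and 11.7 TPM in HDAC KO replicates 1 and 2, against 1.90 and 5.29 TPM in control replicates 1 and 2. The groups overlapped, because HDAC KO replicate 1 lay below control replicate 2. The log2 fold change was 0.98 (SE 0.56, 95% interval -0.42 to 2.37, limma adjusted p = 0.435), or 0.42 without control replicate 1 and 0.38 without HDAC KO replicate 2. Of the exon bases of Fbn1, 20.1% lie in exons of other genes, and the strand setting of the counting is unknown here, so reads of Fbn1 and of those genes may not be told apart there.

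Lox and Loxl2 encode lysyl oxidase and a lysyl oxidase-like enzyme, which crosslink collagens and, in the case of Lox, elastin. Lox (ENSMUSG00000024529.14, chromosome 18) was at 1.99 and 4.38 TPM in HDAC KO replicates 1 and 2, against 1.09 and 1.53 TPM in control replicates 1 and 2. Its groups did not overlap, and the log2 fold change was 0.80 (SE 0.39, 95% interval -0.19 to 1.79, limma adjusted p = 0.367) from 68 and 175 reads in the libraries labelled HDAC KO and 35 and 39 reads in the controls. Loxl2 (ENSMUSG00000034205.16, chromosome 14, 69609068 to 69695834, plus strand) was at 8.61 and 19.4 TPM in HDAC KO replicates 1 and 2, against 4.15 and 10.7 TPM in control replicates 1 and 2. Its groups overlapped, and the log2 fold change was 0.85 (SE 0.53, 95% interval -0.48 to 2.18, limma adjusted p = 0.472). Loxl2 was the higher of the pair in every library, 4.33-fold and 4.43-fold in the libraries labelled HDAC KO and 3.79-fold and 6.98-fold in the controls. Without control replicate 1 the log2 fold change of Loxl2 was 0.26, and without HDAC KO replicate 2 that of Lox was 0.38.

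Bgn and Dcn encode biglycan and decorin, related small leucine-rich proteoglycans that bind collagen and TGF-beta. Bgn (ENSMUSG00000031375.17, chromosome X, 73483602 to 73495933, plus strand) was at 13.0 and 31.1 TPM in HDAC KO replicates 1 and 2, against 9.02 and 18.6 TPM in control replicates 1 and 2. Its groups overlapped (log2 fold change 0.60, SE 0.50, 95% interval -0.67 to 1.86, limma adjusted p = 0.601), and without HDAC KO replicate 2 the log2 fold change was -0.0057 and without control replicate 1 it was 0.11. Dcn (ENSMUSG00000019929.16, chromosome 10, 97479609 to 97518143, plus strand) was at 1.34 and 2.703 TPM in HDAC KO replicates 1 and 2, against 1.79 and 1.76 TPM in control replicates 1 and 2. The controls lay between the libraries labelled HDAC KO, and the log2 fold change was 0.084 (SE 0.35, 95% interval -0.80 to 0.97, limma adjusted p = 0.931). Dcn had no stable direction, with -0.076 under median-ratio scaling, -0.17 under quantile normalization and -0.25 without HDAC KO replicate 2. Bgn exceeded Dcn by 9.67-fold and 11.5-fold in the libraries labelled HDAC KO and by 5.03-fold and 10.6-fold in the controls.

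The order of the 10 genes by mean TPM differed between the groups mainly through Fn1 and Tnc. In the libraries labelled HDAC KO it was Sparc, Fn1, Thbs1, Bgn, Tnc, Loxl2, Fbn1, Lox, Dcn and Postn, and in the controls Sparc, Thbs1, Bgn, Fn1, Loxl2, Fbn1, Tnc, Dcn, Lox and Postn. Fn1 ranked 3 and 2 in HDAC KO replicates 1 and 2, against 5 and 4 in control replicates 1 and 2, and Tnc ranked 5 in both libraries labelled HDAC KO, against 9 and 7 in the controls. Neighbours in the middle of the order lay within each other's spread. In the libraries labelled HDAC KO the 2 values of Fn1 enclosed those of Thbs1, and the ranges of Bgn, Tnc and Loxl2 overlapped, and in the controls the ranges of Fn1 and Loxl2 overlapped, as did those of Fbn1 and Tnc. The summed TPM of the 10 genes was 301 and 536 in HDAC KO replicates 1 and 2, against 166 and 312 in control replicates 1 and 2, so the sums overlapped. Without Sparc it was 128 and 219 in the libraries labelled HDAC KO, against 62.3 and 90.01 in the controls.

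The RefSeq promoter table held 5 of the 10 genes (Fbn1, Postn, Tnc, Sparc and Bgn). The 100 bases before the start are printed for Tnc, whose groups did not overlap, Bgn, whose groups did, and Postn, which was near the lower limit, as these have a RefSeq start within 2 bases of the GENCODE gene start and a printed stretch that meets no annotated exon. Sequences are RefSeq, GRCm38.p6, on the strand of the gene, at chr4:64047016-64047115 (minus strand), chrX:73483501-73483600 (plus strand) and chr3:54361007-54361106 (plus strand), and capitals mark TATAAA.
Tnc: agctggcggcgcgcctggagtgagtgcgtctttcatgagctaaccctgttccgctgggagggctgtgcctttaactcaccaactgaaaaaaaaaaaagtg
Bgn: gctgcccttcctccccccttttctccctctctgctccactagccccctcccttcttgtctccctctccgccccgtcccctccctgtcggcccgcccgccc
Postn: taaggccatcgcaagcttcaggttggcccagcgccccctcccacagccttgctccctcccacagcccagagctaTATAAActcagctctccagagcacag
In Postn the TATAAA lies from -26 to -21 relative to the start, and the same letters stand farther upstream of this start of Tnc, from -126 to -121. Over the 250 bases before a start, TATAAA was found on either strand in 12.4% of 32851 promoters, the AP-1 letters TGANTCA in 6.75% and the TEAD letters GGAATG in 12.6%, with no overlap between the letters searched in these genes. Neither TGANTCA nor GGAATG stood in the windows of the 5 genes.

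Levels of most of the 10 genes also differed between the replicates of a group. For 8 of the 10 genes replicate 2 was higher than replicate 1 in both groups. The median TPM ratio over the 10 genes was 2.11-fold in the libraries labelled HDAC KO and 2.12-fold in the controls. For all tested genes the median was 1.07-fold and 1.21-fold, taken on TPM + 1, which draws the ratios of low genes toward 1. For 7 of the 10 genes the larger of the 2 replicate ratios of TPM exceeded the ratio of the group means. HDAC KO replicate 2 was the highest library for 9 of the 10 genes, all but Postn, and control replicate 1 the lowest for 8, all but Thbs1 and Dcn.

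Markers of several glomerular and other cell types moved between the libraries too. Summed fibroblast markers (8 of 8 listed) were at 44.7 and 229 TPM in HDAC KO replicates 1 and 2, against 22.0 and 57.7 TPM in control replicates 1 and 2, with Col1a1 and Col3a1 the highest of the list in HDAC KO replicate 2 and Dpt and Scara5 under 2 TPM in every library. Only 2 of the 8 lay above both controls in both libraries labelled HDAC KO, against 36.7% of all tested genes, and 0 lay below both. Pi16 was at 6.15 and 13.6 TPM in the libraries labelled HDAC KO, against 7.94 and 19.5 TPM in the controls. Clec3b was at 0.563 and 1.21 TPM in the libraries labelled HDAC KO, against 4.22 and 0.566 TPM in the controls. Endothelial markers (8 of 8) summed to 218 and 457 TPM in the libraries labelled HDAC KO, against 282 and 649 TPM in the controls. Mesangial and smooth muscle markers (9 of 9) summed to 216 and 272 TPM in the libraries labelled HDAC KO, against 180 and 236 TPM in the controls. Of the 10 matrix genes, 8 were higher in replicate 2 of both groups. The same held for 7 of 7 podocyte, 8 of 8 endothelial, 8 of 8 macrophage, 6 of 8 fibroblast and 6 of 9 mesangial and smooth muscle markers, and for 2 of 6 parietal cell and 1 of 9 proximal tubule markers.

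Podocyte markers (7 of 7, Nphs1 and Podxl among them) were present in each library and summed to 99.97 and 248 TPM in the libraries labelled HDAC KO, against 231 and 510.4 TPM in the controls. Parietal cell markers (6 of 6) summed to 1128 and 767 TPM in the libraries labelled HDAC KO, against 265 and 350 TPM in the controls, and macrophage markers (8 of 8) to 572 and 658 TPM in the libraries labelled HDAC KO, against 54.7 and 126 TPM in the controls. Each of the 6 parietal and 8 macrophage markers was higher in both libraries labelled HDAC KO than in both controls, against 36.7% of all tested genes. Below both controls lay 8 of the 9 proximal tubule and 2 of the 7 podocyte markers, against 14.3% of all tested genes. Of the 9 mesangial and smooth muscle markers 2 lay above and 1 below, and of the 8 endothelial markers 0 did either. Proximal tubule markers (9 of 9) summed to 3143 and 3736 TPM in the libraries labelled HDAC KO, against 39021 and 6292 TPM in the controls. Kap alone was at 1004 and 1202 TPM in the libraries labelled HDAC KO, against 31062 and 987 TPM in control replicates 1 and 2. Without Kap, a sum taken after its values were seen, the other 8 were at 2139 and 2535 TPM in the libraries labelled HDAC KO, against 7959 and 5305 TPM in control replicates 1 and 2, and 6 of these 8 were higher in control replicate 1 than in control replicate 2. Every library held tubule RNA, and whether a list, such as the parietal one, marks only its cell type here was not tested. The part of any of these cell types in the values of the 10 genes was not tested either. In whole glomeruli fewer cells of a type and less RNA per cell cannot be told apart.

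**Figure D3:**
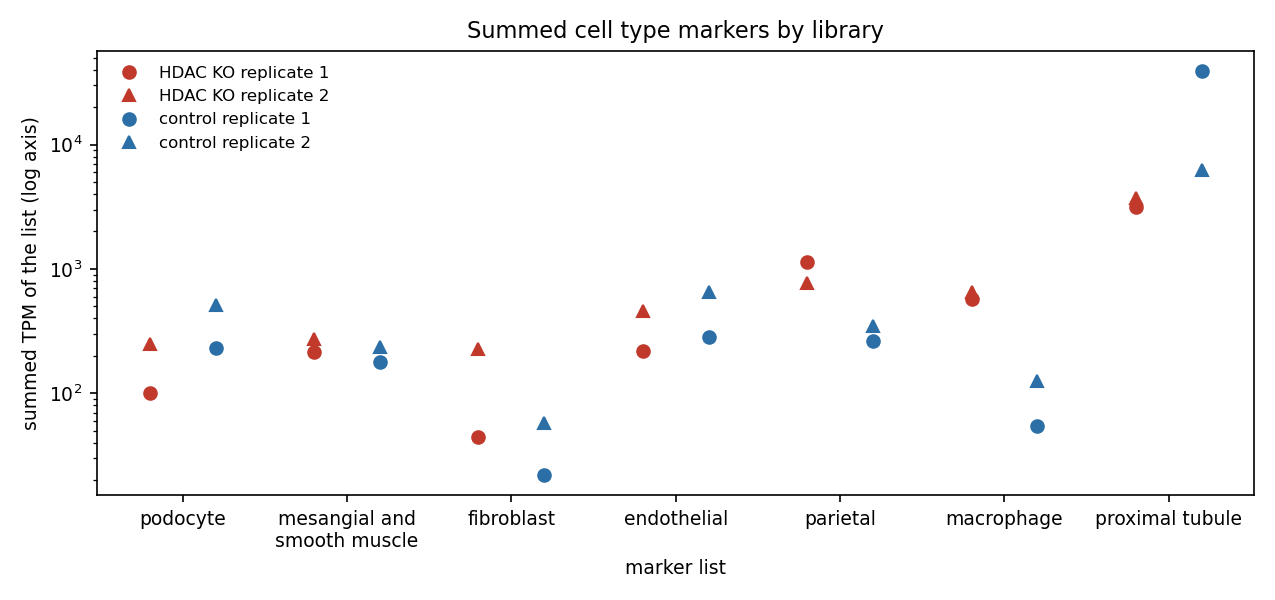
Summed TPM (log axis) of the marker lists by library, with the libraries labelled HDAC KO in red on the left of each list and the controls in blue on the right; circles are replicate 1 and triangles replicate 2. The parietal and macrophage sums are higher in both libraries labelled HDAC KO, while the podocyte, mesangial and smooth muscle, fibroblast, endothelial and macrophage sums are higher in replicate 2 of each group.

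Other genes of the same matrix were read from 5 lists holding 102 genes, of which 91 were in the table and 71 had a mean of at least 1 TPM. None passed the adjusted threshold in limma or voom with all 4 libraries. At an unadjusted p under 0.05, 18 were higher and 2 lower, against 13.4% and 4.46% of all tested genes. Both libraries labelled HDAC KO lay above both controls for 27 of the 71 and below for 4, against 36.7% and 14.3% of all genes, so the upward share was near the background. The count below was 9 with median-ratio scaling (25.5% of all genes), 10 with quantile normalization (27.2%), 18 without HDAC KO replicate 2 (23.1%), 13 without control replicate 1 (35.2%) and 11 without control replicate 2 (21.3%). The count above was 51 without HDAC KO replicate 1, against 51.2% of all genes, and 48 without control replicate 2, against 65%. The median log2 fold change of the 71 was 0.45, which is 0.28 above that of all tested genes.

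Of 16 tested other matricellular genes, 6 had no overlap upward and none downward, against 36.7% and 14.3% of all tested genes. The upward share was thus near that of all genes. The median log2 fold change of the 16 was 0.58, beside 0.17 for all tested genes. Spp1, which encodes osteopontin, was at 28478 and 20424 TPM in HDAC KO replicates 1 and 2, against 1001 and 4293 TPM in control replicates 1 and 2 (log2 fold change 3.54, SE 0.83, limma adjusted p = 0.130), though 18.8% of its exon bases are shared with other genes. Tgfbi, a TGF-beta-induced integrin ligand, was at 25.7 and 38.4 TPM in the libraries labelled HDAC KO, against 2.73 and 9.82 TPM in the controls. Ccn1, a matricellular integrin ligand, was at 196 and 197 TPM in the libraries labelled HDAC KO, against 28.8 and 80.3 TPM in the controls. Mgp, the matrix Gla protein that inhibits calcification, was at 26.8 and 67.6 TPM in the libraries labelled HDAC KO, against 7.30 and 18.4 TPM in the controls. The groups did not overlap for any of these 4, but they were named for the smallest p of the list, so this is not a separate result.

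Microfibril and elastic fibre genes had a median log2 fold change of 0.41 over 17 tested genes. Of these, 6 did not overlap upward and 1 downward, against 36.7% and 14.3% of all tested genes. Adamtsl4, a microfibril-associated protein, was at 10.2 and 14.9 TPM in the libraries labelled HDAC KO, against 1.67 and 5.84 TPM in the controls. The fibulin genes Efemp1 and Efemp2 had log2 fold changes of 0.82 (SE 0.23) and 1.01 (SE 0.33), and Ltbp2, a microfibril-associated member of the latent TGF-beta binding protein family, of 1.23 (SE 0.41), with adjusted p from 0.166 to 0.218 by limma. The 1 gene below both controls was Fbln7, a fibulin gene named after its values were seen, at 0.822 and 3.04 TPM in the libraries labelled HDAC KO, against 11.0 and 3.65 TPM in the controls. Collagen and elastin crosslinking and processing genes had a median of 0.38 over 13 tested genes. Of these, 5 did not overlap upward and 1 downward, against the same 36.7% and 14.3% of all tested genes. Loxl1, a lysyl oxidase-like enzyme of elastic fibres, was at 4.45 and 11.6 TPM in the libraries labelled HDAC KO, against 1.22 and 2.55 TPM in the controls. Tgm2, a transglutaminase, was at 122 and 144 TPM in the libraries labelled HDAC KO, against 85.0 and 77.0 TPM in the controls, and 21.8% of its exon bases are shared with other genes. P4ha1, a collagen prolyl hydroxylase subunit, was the 1 of these below both controls, at 25.3 and 25.7 TPM in the libraries labelled HDAC KO, against 54.4 and 41.1 TPM in the controls, and Pcolce, which enhances procollagen processing, had a log2 fold change of 0.49 (SE 0.17). The other genes above both controls, Loxl4 and the lysyl hydroxylase gene Plod3, were named after their values were seen and had log2 fold changes of 0.86 and 0.38.

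Proteoglycans other than Bgn and Dcn had 5 tested genes of 17 listed and a median log2 fold change of -0.10. Podn was at 3.27 and 5.63 TPM in the libraries labelled HDAC KO, against 7.74 and 8.54 TPM in the controls, below both. Chad, which encodes chondroadherin, was at 3.58 and 5.98 TPM in the libraries labelled HDAC KO, against 0.890 and 2.78 TPM in the controls, and Prelp and Ecm2 had log2 fold changes of 0.33 (SE 0.48) and -0.15 (SE 0.35). Among 20 tested receptors of these glycoproteins the median was 0.57. Of these, 9 did not overlap upward and 1 downward, against 36.7% and 14.3% of all tested genes. Itgav, the integrin alpha V subunit that pairs in receptors for fibronectin, was at 232 and 183 TPM in the libraries labelled HDAC KO, against 84.2 and 90.7 TPM in the controls (log2 fold change 1.23, SE 0.18, limma adjusted p = 0.0988). Sdc1, the heparan sulfate proteoglycan syndecan 1, was at 44.9 and 28.7 TPM in the libraries labelled HDAC KO, against 9.73 and 9.38 TPM in the controls (1.81, SE 0.26, adjusted p = 0.0988). Cd47, a thrombospondin 1 receptor, was at 94.4 and 81.5 TPM in the libraries labelled HDAC KO, against 45.8 and 49.5 TPM in the controls, and Ddr1, a collagen receptor kinase, at 187 and 177 TPM in the libraries labelled HDAC KO, against 108 and 84.0 TPM in the controls. The 1 receptor below both controls was the integrin subunit gene Itgb8, named after its values were seen, at 51.9 and 51.8 TPM in the libraries labelled HDAC KO, against 62.5 and 65.0 TPM in the controls.

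**Figure D4:**
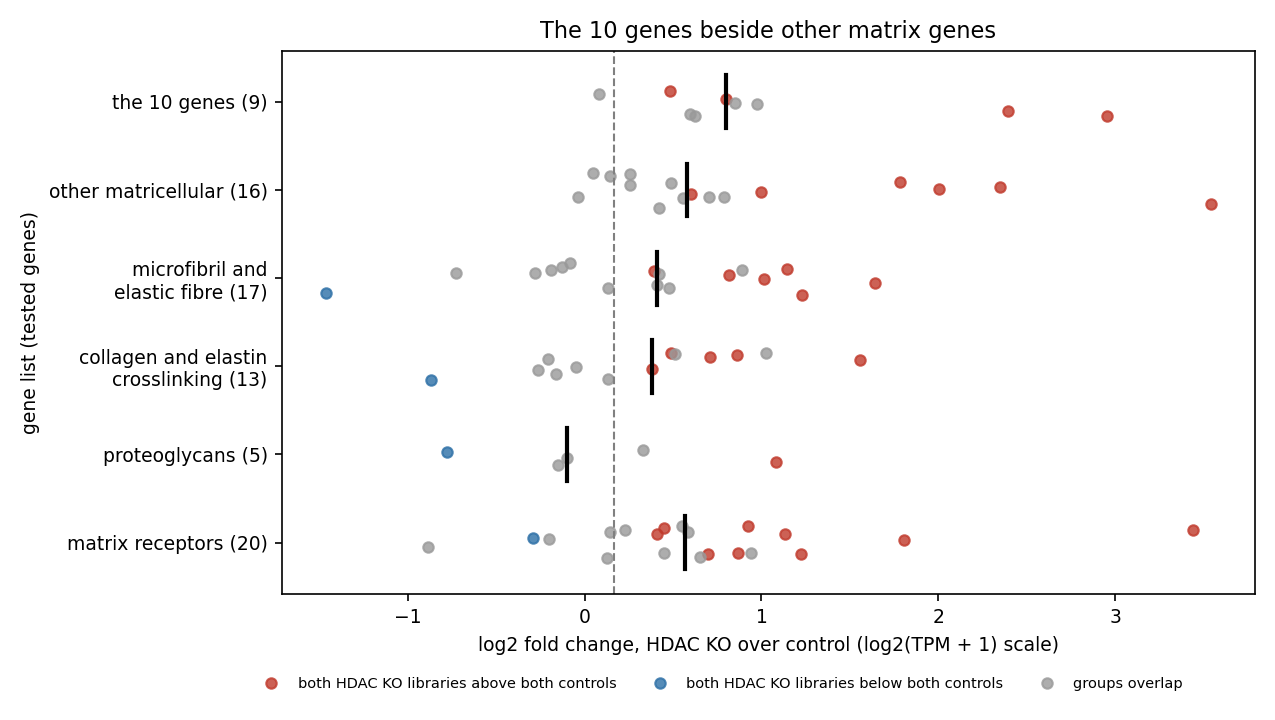
Log2 fold change of each tested gene, HDAC KO-labelled over control on the log2(TPM + 1) scale, for the 10 genes (9 tested) and 5 lists of other matrix genes; red, blue and grey points mark groups that do not overlap upward, do not overlap downward and overlap, black bars are list medians, and the dashed line is the median of all tested genes. The medians run from -0.10 for proteoglycans to 0.80 for the 10 genes, and Spp1 has the highest value, 3.54.

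The genes whose values lay nearest to those of 3 members over the 4 libraries were found by the Euclidean distance between centred log2(TPM + 1) values among 13445 genes. For Sparc they were the prostaglandin transporter gene Slco2a1 (distance 0.0371), Zbtb7c (0.0789) and Phlda3 (0.0924). Slco2a1 was at 12.1 and 22.5 TPM in HDAC KO replicates 1 and 2, against 6.99 and 16.0 TPM in control replicates 1 and 2. For Thbs1 they were Fhitos (0.0143), the ubiquitin gene Ubb (0.0419) and Cdk5rap3 (0.0435). For Fn1 they were Mir1942 (0.202), Ighj1 (0.268) and Mir1904 (0.504), which are listed at 0 in control replicate 1. With 4 libraries such nearness is a description only.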

How the data were processed

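Poly(A) RNA of glomeruli was sequenced in 4 libraries, 2 per group. The deposited data are 1 table of the authors' TPM values, for 22809 genes, each column summing to 1000000, with 1 column per library named for its sample. Per the submitters' processing notes the build was GRCm38.p6, and the tools listed there, without roles, are STAR 2.7.9, fastp 0.20, DESeq2 1.30.1 and featureCounts 2.0.0. The annotation is not given in the sources used here, nor are the strand setting and the filter on listed genes.

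Symbols were found for 22762 genes. Multiplying TPM by GENCODE M21 exon length gave whole reads for 97.2% of genes (relative tolerance 1e-06), which set the precision of low genes. Groups were compared with limma 3.58.1 (R 4.3.3; lmFit, then eBayes with trend) on log2(TPM + 1), which understates the change of low genes, with no covariate, for 18612 genes with a mean of at least 1 TPM, leaving out 4197. P values were adjusted by Benjamini-Hochberg over all genes tested and called below 0.05, with 2 residual degrees of freedom (1 with a library left out, when the lone library is assumed to vary like the other group, or with the replicate block). Intervals of fold changes are at 95% and unadjusted. With 2 libraries a group, the smallest two-sided p of an exact permutation test is 0.333. The fit was run on simulated reads, drawn with the same expected share for each gene in both libraries of a group. It was not tested at replicate differences as wide as those of Fn1 and Tnc in the controls. Python 3.11.15, numpy 2.4.6, pandas 2.3.3, scipy 1.17.1 and matplotlib 3.10.9 were used.

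The 10 genes and the other lists were chosen with earlier results of these data known, so their directions are not independent evidence. Named by rule were the 10 genes, Hdac1 and Hdac2, the 4 genes of each other matrix list with the smallest p, and the 3 nearest genes to Fn1, Sparc and Thbs1, with predicted, clone-named and mitochondrial genes left out. A podocyte marker of the lists is not reported here and was left out of the sum. TATAAA was searched after the promoters were seen. Alternatives were quantile normalization, median-ratio scaling, pseudocounts of 0.1 and 5, a mean of at least 5 TPM, no filter, a replicate block, limma without trend, each library left out, and voom on the recovered reads. Each library was treated as a separate pool of mice, which its label does not state. The p-values measure the spread between libraries within a group, which limma moderates with the spread of all tested genes.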

Additional observations from a re-analysis of the deposited data

How the results depend on the processing

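With 1 library left out in turn, the members called higher numbered 0 to 2, those called lower 0, those not overlapping upward 4 to 9 and downward 0 to 1, and the difference of medians from all genes was 0.25 to 1.01. Over all genes 0 to 1558 were called higher and 0 to 522 lower, the highest without control replicate 2. In the wider matrix lists 0 to 12 genes were called, 27 to 51 did not overlap upward and 4 to 18 downward. Over the same 4 fits the log2 fold change of Bgn was -0.0057 to 1.20 and that of Dcn -0.25 to 0.42, each lowest without HDAC KO replicate 2. Dcn was at -0.076 with median-ratio scaling and at -0.17 with quantile normalization. Wider genes not overlapping downward numbered 7 with no filter, 9 with median-ratio scaling and 10 with quantile normalization. The 1 gene called lower was not called (0 genes) with quantile normalization, limma without trend or voom. The causes were not tested. In the other settings no member was called and the members not overlapping upward stayed within 1.5 times of 4. The 3 members at an unadjusted p under 0.05 became 2 or 3 in the other settings with all 4 libraries, apart from the replicate block below. The share of all tested genes in those settings was 9.54% to 15.2%, against 13.4% in the main fit. Lox and Dcn have no value at a minimum of 5 TPM.

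The replicate numbers are shared by the titles of both groups, and the design text speaks of 2 independent experiments without tying a number to either. Differences between replicates 2 and 1 correlated across genes at 0.140 between the groups, from 2 pairs. With the replicate number as a block, 0 members were called, and the adjusted p of both Fn1 and Tnc was 0.0618 by limma, the lowest of the 9. At an unadjusted p under 0.05 the members higher then numbered 8, against 3 without the block, and all genes 15.8% against 13.4%. Within both replicate numbers 8 of the 10 members were higher in the library labelled HDAC KO. The share of all tested genes for which this held was not counted, and 66.6% of them had a positive log2 fold change.

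Precision is limited by 2 libraries a group, and for Postn, Lox and Dcn by reads.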
